A study of Mus musculus with 29 samples.

Results

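The genes described here mark the deepest neurons of the cortical plate, the corticothalamic neurons of layer 6, and the subplate beneath them. They are Tbr1, Foxp1, Foxp2, Syt6, Tle4, Sox5, Nr4a2 and Ctgf, 8 of the 36831 genes listed in the counts of both RNA-seq experiments of the series. The list was selected on measured values: it was drawn up because Foxp1 and Syt6 were higher after a Wnt inhibitor, so that contrast is given as a description with no test, and Foxp1 and Syt6 are given without a test in every contrast. All tissue was embryonic cortex of C57BL/6J mice at E17.5, late in gestation. The study asked what the chromatin remodelling subunits BAF155 (Smarcc1) and BAF170 (Smarcc2) do in the late pallium, and deleted both with floxed alleles and the hGFAP-Cre line (the double conditional knockout, dcKO). Without treatment there were 4 control libraries (C) and 3 mutant libraries (M). Every one of these 7 carries the dcKO hGFAP-Cre genotype label, so that control and mutant were told apart by the letter in the title. Controls of the untreated and ChIP experiments, by the study's methods, were littermates heterozygous for both floxed alleles that also carry Cre. In the treated experiment there were 4 wild-type libraries given vehicle, 4 dcKO libraries given vehicle and 4 dcKO libraries given a Wnt inhibitor, which the study's methods name as ICG-001, injected into the pregnant mother. H3K27me3, the histone mark left by Polycomb complexes, was profiled by ChIP-seq in 4 control (C) and 4 mutant (K) libraries, again with 1 genotype label for both. hGFAP-Cre acts in radial glia, first in the medial pallium and then across the cortex, so neurons born before it acts keep both genes. The material was bulk tissue, in which fewer cells of a type and less RNA per cell cannot be told apart.

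Layer 6 neurons are among the first born of the cortical plate and send their axons to the thalamus. Tbr1, a T-box transcription factor, sets their identity and represses the subcortical projection programme of layer 5. Sox5, an SRY-related factor, controls the order in which deep-layer neurons settle, Tle4 is a Groucho-family corepressor, and Foxp1 and Foxp2 are forkhead repressors. Syt6 is a synaptotagmin, a membrane trafficking protein. Nr4a2 (Nurr1), an orphan nuclear receptor, and Ctgf, a secreted matricellular protein, mark the subplate and layer 6b, although Nr4a2 is also strong in the claustrum. Both forkhead genes are also strong in striatal projection neurons, outside the cortex.

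The libraries held 11946658 to 28391046 counts, and the members 71 to 10586 counts in a library. In the libraries labelled dcKO, Smarcc1 and Smarcc2 split in a way the labels do not. Untreated M 3 and M 4 and dcKO vehicle 1, 3 and 4 held Smarcc1 at 49.8 to 52.6% of the mean of their controls and Smarcc2 at 58.1 to 60.0%. The library labelled untreated M 2 held them at 95.4% and 98.3%, the library labelled dcKO vehicle 2 at 91.1% and 94.6%, and the libraries labelled Wnt inhibitor 1 and 2 at 80.5% and 88.1% and at 94.6% and 95%. Wnt inhibitor 3 was at 52.5% and 56.8%, and Wnt inhibitor 4 at 65.1% and 80.1%. Results are therefore given for all libraries and again without the 4 in which both genes were at 80% or more of the control mean, a choice made after seeing the data. The 2 experiments are also not independent. Of the 7 same-numbered pairs of an untreated and a vehicle library, 7 deviated from their group means together more than with any other number (r = 0.20 to 0.80 over 15220 genes) and 7 shared the same pattern of sex-linked genes. dcKO vehicle 1 held both Xist (673 CPM) and Y-linked counts (107 CPM), where every other library held only one kind at a high level, and 3 of the 4 inhibitor libraries were of the Y-linked kind. Whether they came from the same embryos is not given in the sources used here, so the untreated and the vehicle contrasts are set side by side and neither is counted as support of the other. Each of the 8 genes had counts in every library, as cortex of this age should.

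Per length, the members spanned a wide range of levels. In the wild-type vehicle libraries, mean RPKM (reads per kilobase of annotated exon, further scaled to library size, ± SD, n = 4) was 59.7 ± 8.4 for Tbr1, 27.7 ± 3.7 for Tle4, 20.3 ± 0.44 for Nr4a2, 15.4 ± 4.4 for Sox5, 9.55 ± 0.48 for Syt6, 8.75 ± 0.80 for Foxp1, 2.3 ± 0.23 for Ctgf and 2.3 ± 0.55 for Foxp2. Tbr1 lay above Tle4, and Tle4 above Nr4a2, in each of these libraries without overlap. The ranges of Nr4a2 and Sox5, of Syt6 and Foxp1, and of Ctgf and Foxp2 overlapped, so the order within these pairs does not stand beyond their spread. In the dcKO vehicle libraries Sox5 was at 11.1 ± 3.7 RPKM, Foxp1 at 6.78 ± 0.83 and Ctgf at 1.54 ± 0.69. All values that follow are CPM (counts scaled to a common library size with TMM), a level that compares libraries and not genes.

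The promoters were read for the core letters of 3 kinds of factor and for CpG content. RefSeq (GRCm38.p6) entries of 250 bases before to 50 after a start were at hand for 6 of the 8 members, and none for Foxp2 and Ctgf. Both strands were searched for CTTTGA, the core letters read by TCF and LEF factors at the end of the Wnt pathway. Of the 11 entries, 1 of Tbr1 and 1 of Foxp1 held it, none of the 3 entries of Syt6 did, and 16% of all 32841 promoters of that length do. The 3 shown are the pair with a match (in capitals, as CTTTGA or its reverse complement TCAAAG) and the start of Syt6, the other gene the list was selected on. The Tbr1 window is chr2:61804203-61804502 on the plus strand, the Foxp1 window is chr6:99266466-99266765 on the minus strand at 1 of its 3 listed starts, and the Syt6 window is chr3:103574995-103575294 on the plus strand.
Tbr1: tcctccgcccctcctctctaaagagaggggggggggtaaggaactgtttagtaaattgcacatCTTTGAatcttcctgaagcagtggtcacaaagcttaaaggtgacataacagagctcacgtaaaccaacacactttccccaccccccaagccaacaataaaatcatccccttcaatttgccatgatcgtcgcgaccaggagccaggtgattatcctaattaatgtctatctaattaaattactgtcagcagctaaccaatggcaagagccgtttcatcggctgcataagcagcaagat
Foxp1: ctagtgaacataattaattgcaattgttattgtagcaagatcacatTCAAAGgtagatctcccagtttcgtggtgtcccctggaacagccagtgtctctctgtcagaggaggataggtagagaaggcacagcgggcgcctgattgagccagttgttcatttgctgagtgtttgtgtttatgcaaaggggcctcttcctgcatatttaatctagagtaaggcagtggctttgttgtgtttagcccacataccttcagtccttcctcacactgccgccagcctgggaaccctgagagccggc
Syt6: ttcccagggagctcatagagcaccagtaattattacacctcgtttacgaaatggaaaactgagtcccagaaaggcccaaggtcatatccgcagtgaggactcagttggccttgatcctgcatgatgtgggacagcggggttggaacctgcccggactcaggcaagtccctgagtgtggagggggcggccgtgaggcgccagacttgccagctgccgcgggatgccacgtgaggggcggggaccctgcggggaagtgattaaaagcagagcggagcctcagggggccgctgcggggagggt
The match lies at bases 64 to 69 of the Tbr1 window and at bases 47 to 52 of the Foxp1 window. GGTGTG, a T-box core, was in 1 entry, that of Sox5 (19% of all promoters), and TGTTTAC, a forkhead core, in none (3.65% of all). CpG content differed widely, from 52 CpG in the entry of Nr4a2 and 44 in the richer entries of Tle4 and Foxp1 to 16 in the Syt6 window shown, 7 in that of Tbr1 and 3 in that of Sox5, against a median of 7 over all promoters. A match is a description of letters and no evidence of binding.

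The first question was what loss of BAF155 and BAF170 did to layer 6 genes without treatment. With all 7 libraries, none of the 6 members tested differed between M and C. Without the library labelled M 2, Sox5, Ctgf and Tle4 were lower in the mutant, while Tbr1, Foxp2 and Nr4a2 did not pass the test.

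Sox5 was at 227, 218, 290 and 236 CPM in C 1 to 4, and at 278, 151 and 149 CPM in M 2, 3 and 4. M 2 lay within the controls, and M 3 and M 4 lay below all of them. Ctgf, a low gene, was at 6.22, 5.85, 7.61 and 5.38 CPM in C and at 7.89, 2.92 and 3.55 CPM in M 2, 3 and 4. Here M 2 was the highest of the 7 libraries and M 3 and M 4 were the lowest. Tle4 was at 171, 164, 185 and 177 CPM in C and at 203, 144 and 132 CPM in M, with the same split. Among the members not lower, Tbr1 was at 348, 294, 377 and 343 CPM in C and at 381, 310 and 361 CPM in M, fully overlapping. Nr4a2 ranged from 77.7 to 93.2 CPM in C and was at 109, 76.5 and 84.5 CPM in M. Foxp2 ranged from 42.1 to 52.9 CPM in C and was at 35.3, 52.9 and 43.2 CPM in M. Of the pair that chose the list, Foxp1 was at 168, 126, 140 and 139 CPM in C and at 131, 108 and 96.7 CPM in M, and Syt6 at 69.7, 64.8, 52.8 and 57.2 CPM in C and at 54.7, 45.4 and 49.3 CPM in M. For both, only M 2 reached into the range of the controls.

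**Figure D1:**
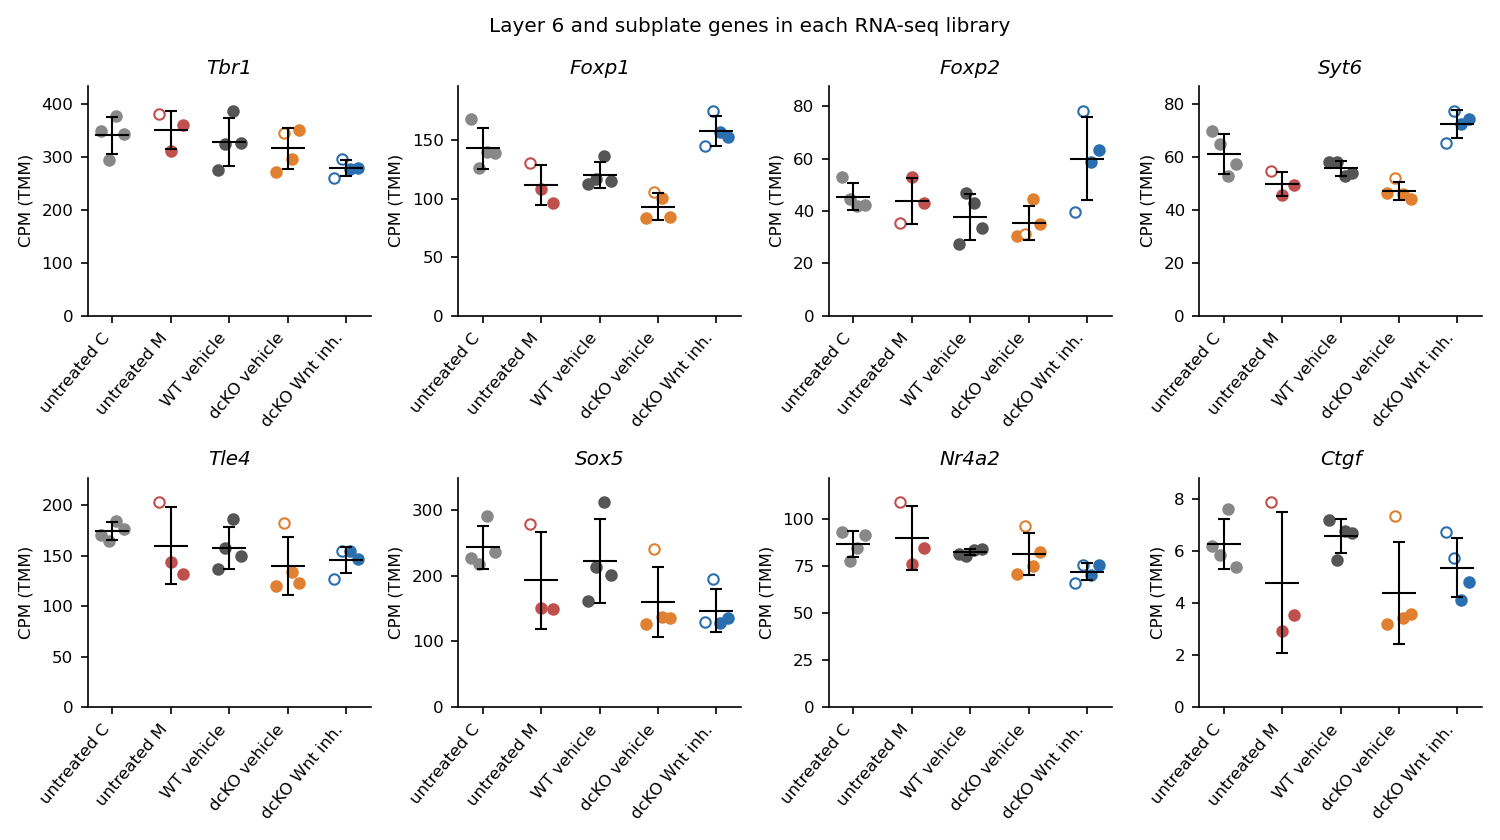
TMM-scaled CPM of the 8 genes (y axes from 0) in each of the 19 RNA-seq libraries by group (x axes). Points are libraries, open points are the 4 labelled dcKO with Smarcc1 and Smarcc2 at 80% or more of the control mean, and bars are mean and SD. Foxp1 and Syt6 have their highest mean in the Wnt inhibitor group, although untreated C 1 (168 and 69.7 CPM) lies within the range of that group. For Sox5 and Ctgf the open points of untreated M and dcKO vehicle stand above the filled ones.

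In the edgeR quasi-likelihood test over 15770 genes, 0 of 6 members passed an adjusted p of 0.05, where 0% of all genes were called lower. None of the 6 was under an unadjusted p of 0.05, and DESeq2 called 0 of 6 as well. The log2 fold changes with their SE were -0.34 ± 0.23 for Sox5, -0.46 ± 0.32 for Ctgf, -0.13 ± 0.13 for Tle4, -0.05 ± 0.13 for Foxp2, 0.05 ± 0.12 for Nr4a2 and 0.04 ± 0.10 for Tbr1. The values of Foxp1 and Syt6, not tested, were -0.36 and -0.30. Without M 2 the same test called 3 of 6 lower, where 6.88% of 16024 genes were called lower. Sox5 fell by 0.69 on the log2 scale (95% interval -0.93 to -0.45, adjusted p = 0.0029), which is 0.619 of the control level. Ctgf fell by 0.96 (-1.37 to -0.55, adjusted p = 0.0078), to 0.514 of the control level, and Tle4 by 0.34 (-0.48 to -0.19, adjusted p = 0.0088), to 0.792. Tbr1, the gene that defines the layer, was at -0.02 (-0.24 to 0.20), Nr4a2 at -0.11 (-0.29 to 0.07) and Foxp2 at 0.08 (-0.17 to 0.33), so that 3 members had intervals spanning 0. The median over the 8 members, Foxp1 and Syt6 included, was -0.21 with all libraries and -0.35 without M 2, against 0.00 and -0.00 over all genes. Scaled by pan-neuronal genes it was -0.057, with all genes at 0.16. As the pair that chose the list is part of this median, nothing is read from it.

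Markers of other cells moved in the same libraries. Upper-layer genes summed to 1846 to 2262 CPM in C and to 1466 and 1512 CPM in M 3 and M 4, and without M 2 edgeR called 7 of 12 lower. Layer 5 genes summed to 725 to 824 CPM in C and to 626 and 656 CPM in M 3 and M 4, with 4 of 8 called lower. Interneuron genes summed to 700 to 805 CPM in C and to 974 and 891 CPM in M 3 and M 4, with 5 of 10 called higher. Striatal genes summed to 508 to 568 CPM in C and to 660 and 664 CPM in M 3 and M 4, with 1 of 13 called higher and 1 lower. In M 2 these sums were 2276, 828, 603 and 496 CPM, for the first pair above every control and for the second pair below every control. With all libraries edgeR called 0 genes of any of these 4 lists, where 2, 0, 1 and 1 were under an unadjusted p of 0.05 and DESeq2 called 1 upper-layer gene lower and 1 striatal gene higher. The pan-neuronal sum was 13165 to 14231 CPM in C and 12404, 12084 and 12045 CPM in M 2, 3 and 4. The part of a changed mix of cells in the lower Sox5, Ctgf and Tle4 was not tested.

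The same genotype contrast was read in the vehicle-treated cortex. With all libraries none of the 6 tested members differed. Without the 4 libraries at 80% or more of control Smarcc1 and Smarcc2 (the doubted libraries), Ctgf and Sox5 were lower in dcKO. Tle4 did not pass the test there. With only dcKO vehicle 2 left out, Sox5 did not pass either.

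Sox5 was at 162, 214, 312 and 200 CPM in wild type 1 to 4 and at 126, 240, 137 and 135 CPM in dcKO vehicle 1 to 4. The library labelled dcKO vehicle 2 stood apart, and the other three lay below every wild-type library. Ctgf was at 7.21, 5.68, 6.78 and 6.70 CPM in wild type and at 3.20, 7.35, 3.44 and 3.59 CPM in dcKO. Here dcKO vehicle 2 again stood apart, just above the wild-type range. Tle4 was at 137, 158, 186 and 150 CPM in wild type and at 121, 183, 134 and 123 CPM in dcKO. Foxp1 was at 113, 116, 137 and 115 CPM in wild type and at 83.2, 106, 100 and 84.0 CPM in dcKO. Syt6 was at 58.0, 58.1, 52.7 and 53.9 CPM in wild type and at 46.3, 52.0, 46.1 and 44.1 CPM in dcKO. For Foxp1 and Syt6 the groups did not overlap, as for 2.58% of all genes lower in dcKO, and dcKO vehicle 2 was the dcKO library nearest to wild type. The selection used these dcKO vehicle values, so nothing is read from it. Tbr1 ran from 274 to 387 CPM in wild type and from 271 to 351 CPM in dcKO, Nr4a2 from 80.7 to 84.3 and from 70.9 to 96.6 CPM, and Foxp2 from 27.3 to 46.9 and from 30.4 to 44.7 CPM. The ranges of these genes overlapped.

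With all 12 treated libraries in the edgeR fit, 0 of 6 members passed (0% of 16372 genes were called lower), 1 of them, Ctgf, was under an unadjusted p of 0.05, and DESeq2 called 0 of 6. The log2 fold changes were -0.58 ± 0.25 (SE) for Ctgf, -0.47 ± 0.23 for Sox5, -0.17 ± 0.14 for Tle4, -0.09 ± 0.21 for Foxp2, -0.05 ± 0.11 for Tbr1 and -0.02 ± 0.10 for Nr4a2. The values of Foxp1 and Syt6 were -0.37 and -0.24. Without the doubted libraries 2 of 6 members were called lower, where 3.34% of 16815 genes were. Ctgf fell by 0.95 (95% interval -1.27 to -0.63, edgeR adjusted p = 0.0035), to 0.517 of wild type, and Sox5 fell by 0.74 (-1.15 to -0.33, adjusted p = 0.0421), to 0.599. Tle4 was at -0.33 (-0.57 to -0.08, adjusted p = 0.132). With only dcKO vehicle 2 left out, Ctgf alone was called. Tbr1 was at -0.10 (-0.38 to 0.18), Foxp2 at -0.04 (-0.46 to 0.39) and Nr4a2 at -0.11 (-0.30 to 0.07). Markers of other cells moved here as well. In dcKO vehicle 1, 3 and 4 upper-layer genes summed to 1595 to 1816 CPM (2245 to 2510 CPM in wild type) and interneuron genes to 972 to 1040 CPM (708 to 880 CPM), while dcKO vehicle 2 was at 2514 and 639 CPM. With the doubted libraries left out, edgeR called 4 of 12 upper-layer and 3 of 8 layer 5 genes lower and 2 of 10 interneuron and 2 of 13 striatal genes higher. With all libraries it called 0 of each, where 3, 1, 0 and 2 were under an unadjusted p of 0.05 and DESeq2 called 1 striatal gene higher. Their part in the lower Ctgf and Sox5 was not tested.

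**Figure D2:**
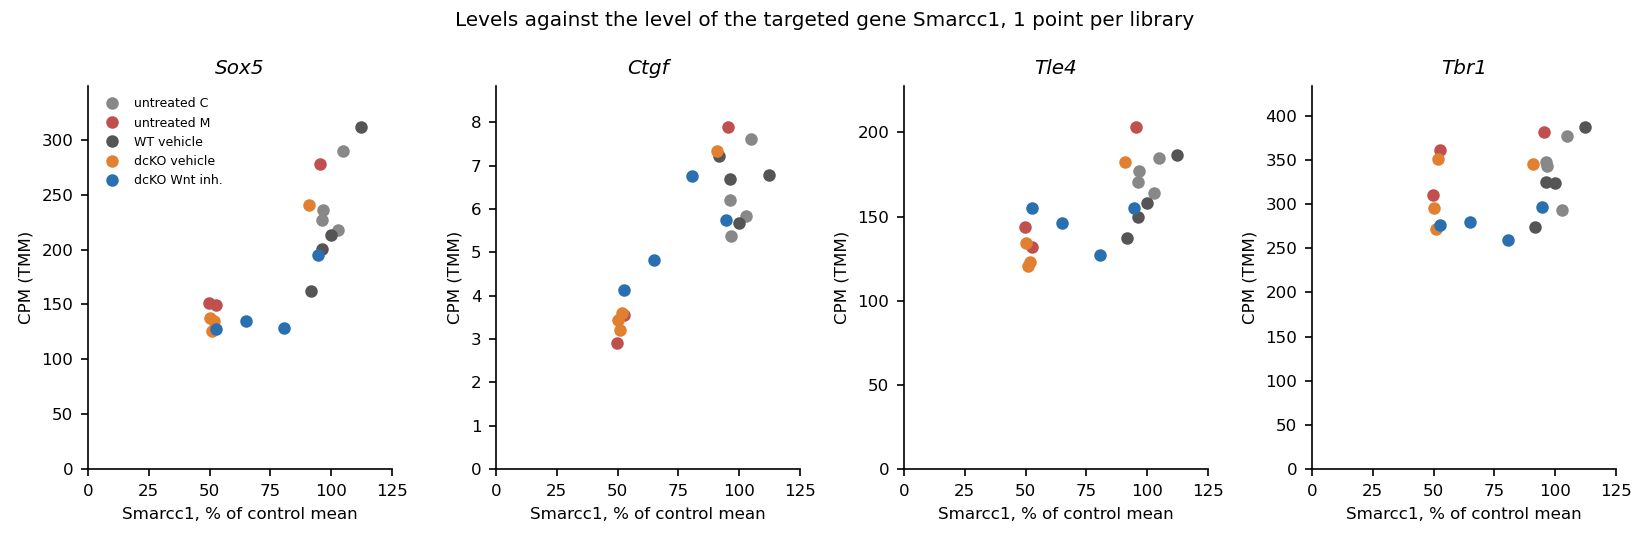
TMM-scaled CPM of Sox5, Ctgf, Tle4 and Tbr1 (y axes from 0) against Smarcc1 as a percentage of the mean of the controls of the same experiment (x axes). Each point is a library, coloured by group. The dcKO vehicle library at 91.1% and the untreated M library at 95.4% of Smarcc1 sit among the controls for Sox5. For Ctgf they lie above all controls of their own experiment (7.35 and 7.89 CPM), while Tbr1 has no such split.

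Whether the genotype contrast itself differed between the 2 experiments was tested as an interaction, with the vehicle contrast minus the untreated contrast. In edgeR 0 of 6 members passed (0% of 16156 genes did), none at an unadjusted p of 0.05, with differences of -0.13 ± 0.42 (SE) for Ctgf and -0.13 ± 0.35 for Sox5 and smaller ones for the others. DESeq2 was not run for this interaction. The intervals of Ctgf (-1.0 to 0.74) and Sox5 (-0.86 to 0.60) are wider than their changes, and the matched libraries make this no comparison of separate embryos.

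Other genes of layer 6 corticothalamic neurons, a list of 9 that holds no member, were read in the same fits. With all libraries edgeR called 0 of 9 in either genotype contrast, 2 of 9 were under an unadjusted p of 0.05 in each, and DESeq2 called 1 of 9 lower without treatment and 0 of 9 with vehicle. Without the doubted libraries 7 of 9 were lower in untreated M, with a median of -0.51. Fezf2, a zinc finger factor that directs subcortical projection neurons and is strongest in layer 5, was at -1.04 on the log2 scale, Bcl11a (Ctip1), a zinc finger repressor of deep-layer neurons, at -0.92, and Ntsr1, the neurotensin receptor used to mark corticothalamic cells, at -0.80. Hs3st4 and Zfpm2 were at -0.52 and -0.51. With vehicle, 5 of 9 were lower, namely Fezf2 (-1.08), Bcl11a (-0.97), Ntsr1 (-0.75), Zfpm2 (-0.56) and Hs3st4 (-0.49). These shares stand against the 6.88% and 3.34% of all genes called lower. The summed level of the 9 genes was 1347 to 1443 CPM in the untreated controls, 961 and 983 CPM in M 3 and M 4, and 1501 CPM in M 2.

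The other subplate and layer 6b genes did not move one way. Of 9 tested out of 10 listed, edgeR called 0 in either genotype contrast with all libraries, 3 and 2 were under an unadjusted p of 0.05, and DESeq2 called Nxph4 higher in both and Cdh10 lower without treatment. Without the doubted libraries Nxph4, a neurexophilin, was higher by 1.64 in untreated M and by 1.46 in dcKO vehicle. Lpar1, the lysophosphatidic acid receptor, was at -1.27 and -1.31. Unc5c, a netrin receptor, was higher (0.52) and the cadherin Cdh10 lower (-0.43) in untreated M. Among the 2 subplate members, Ctgf was lower beside Lpar1, while Nr4a2 stayed within its interval around 0.

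The contrast that chose the list compares dcKO with Wnt inhibitor and dcKO with vehicle, and its values are a description. Foxp1 was at 145, 175, 157 and 153 CPM in Wnt inhibitor 1 to 4, against 83.2 to 106 CPM in dcKO vehicle. Syt6 was at 65.1, 77.5, 72.6 and 74.4 CPM, against 44.1 to 52.0 CPM. For both genes every inhibitor library lay above every library of the other 2 treated groups. Foxp2 was at 39.6, 78.3, 58.8 and 63.2 CPM, against 30.4 to 44.7 CPM in dcKO vehicle. Inhibitor 2, 3 and 4 lay above that range and inhibitor 1 lay inside it.

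The log2 fold changes were 0.76 for Foxp1 (1.69-fold), 0.76 for Foxp2 (1.70-fold) and 0.62 for Syt6 (1.54-fold), with SE of 0.11, 0.21 and 0.09. The other five were smaller, at 0.28 for Ctgf, 0.06 for Tle4, -0.12 for Sox5, -0.17 for Nr4a2 and -0.18 for Tbr1. That Foxp1 and Syt6 were past the edgeR threshold (0.0428% of all genes were called higher) and did not overlap upward (4.48% of all genes) was fixed by the selection, and nothing is read from it. Foxp2, at nearly the same fold change, lay outside the threshold in edgeR and inside it in DESeq2. Without the doubted libraries the values were 0.80, 0.74 and 0.70 for Foxp1, Foxp2 and Syt6, and the same 2 genes, again those of the selection, were past the threshold (0.303% of all genes). Leaving out 1 library kept Foxp1 between 0.70 and 0.82 and Syt6 between 0.58 and 0.67, but took the count called to 0 when dcKO vehicle 1, 3 or 4 or Wnt inhibitor 3 or 4 was dropped. The median over the members, Foxp1 and Syt6 included, was 0.17, against 0.01 over all genes. It was 0.43 without dcKO vehicle 2, 0.074, 0.11 and 0.094 without dcKO vehicle 1, 3 or 4, and 0.33 without the doubted libraries. The selected pair is part of this median, so nothing is read from its height. With 1 library left out Ctgf ran from 0.15 to 0.65, the highest again without dcKO vehicle 2. The targets of canonical Wnt signalling, which the drug was given to lower, summed to 123 to 159 CPM in dcKO vehicle and to 101, 117, 123 and 141 CPM in Wnt inhibitor 1 to 4, and edgeR and DESeq2 each called 0 of 10, with 1 and 2 under an unadjusted p of 0.05. Of these targets 4 were positive and 6 negative, with a median of -0.11 and a range of -0.61 to 0.44.

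**Figure D3:**
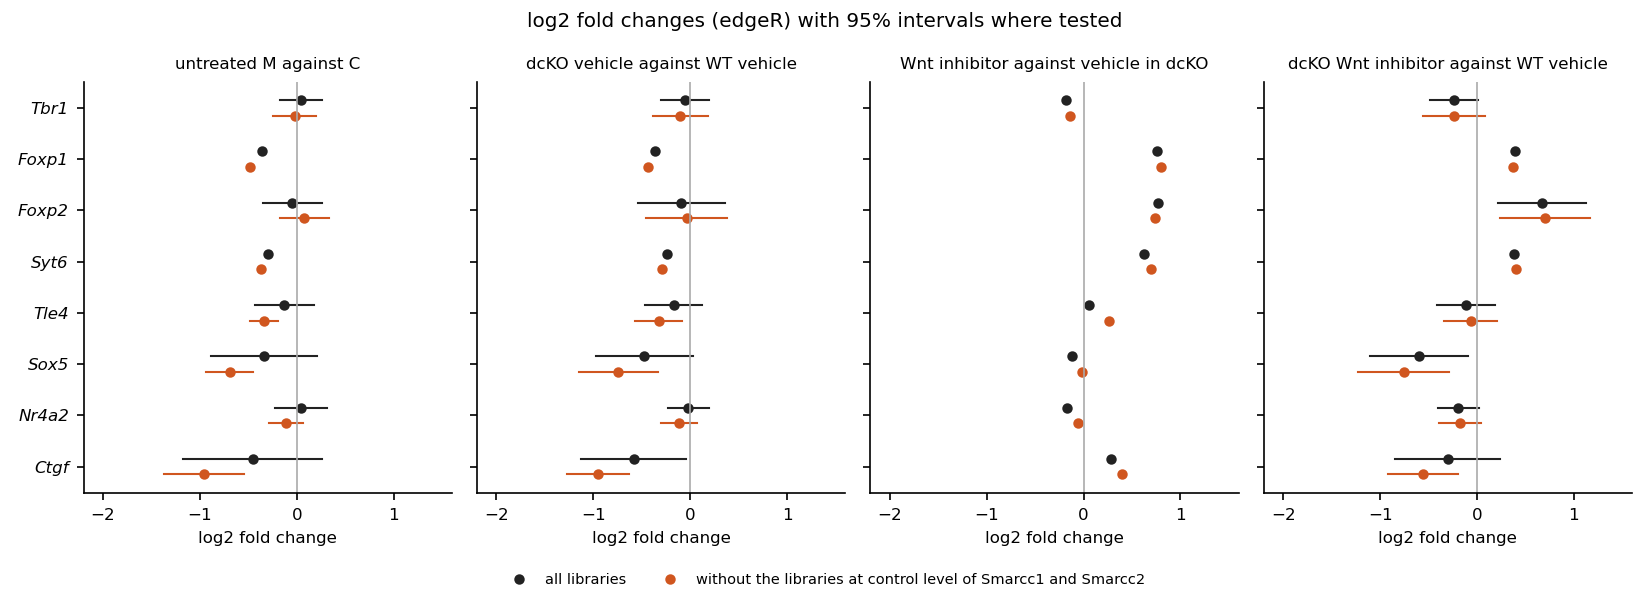
log2 fold changes (x axes) of the 8 genes (rows) in 4 contrasts, fitted with all libraries (dark) and without the 4 doubted libraries (orange). The doubted libraries are labelled dcKO and held Smarcc1 and Smarcc2 at 80% or more of the control mean. Lines are 95% intervals, drawn where a gene was tested. Ctgf and Sox5 lie furthest left in the genotype contrasts, except that Foxp1 (-0.36) is left of Sox5 (-0.34) in untreated M against C with all libraries. Foxp1, Foxp2 and Syt6 lie furthest right (0.62 to 0.76) under the inhibitor.

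Markers of tissue next to the cortex were uneven in the inhibitor group. Of 13 genes of striatal neurons, which also express Foxp1 and Foxp2, 12 were positive in the same contrast with a median of 1.32. edgeR called 0 of 13, 11 were under an unadjusted p of 0.05, and DESeq2 called 4 higher. Without the doubted libraries edgeR called Ebf1, a transcription factor of striatal development, higher (1.23). The summed level of the list was 477 to 554 CPM in wild type, 458 to 680 CPM in dcKO vehicle and 566, 790, 822 and 788 CPM in Wnt inhibitor 1 to 4. Inhibitor 1, the lowest of its group in this sum, was also the lowest in Foxp1, Foxp2 and Syt6, although its Foxp1 and Syt6 were still above all vehicle libraries. Wnt inhibitor 1 and wild type 3 had similar striatal sums (566 and 554 CPM), and 145 and 137 CPM of Foxp1 and 65.1 and 52.7 CPM of Syt6. Wild type 2, at 549 CPM of striatal genes, had 116 CPM of Foxp1 and 58.1 CPM of Syt6. dcKO vehicle 4, with 680 CPM of striatal genes, had 84.0 CPM of Foxp1 and 44.1 CPM of Syt6. The part of striatal tissue in the higher values was not tested.

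**Figure D4:**
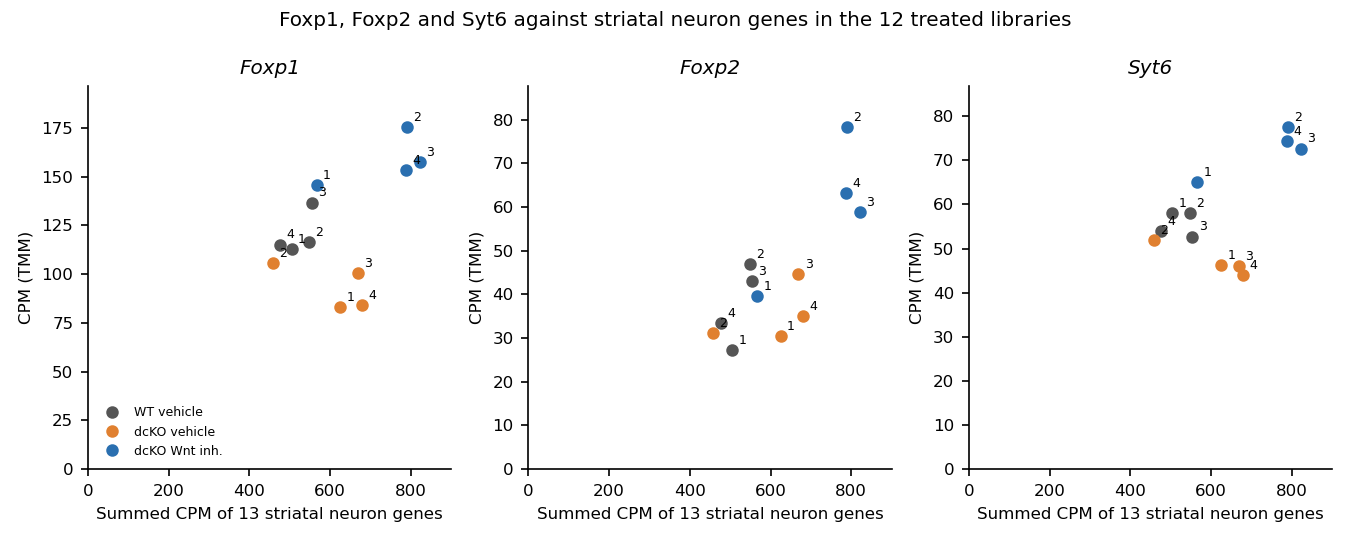
TMM-scaled CPM of Foxp1, Foxp2 and Syt6 (y axes from 0) against the summed CPM of 13 striatal neuron genes (x axes from 0) in the 12 treated libraries. Points are libraries, numbered by replicate and coloured by group. Wnt inhibitor 2, 3 and 4 lie at 788 to 822 CPM of striatal genes, above all vehicle libraries, and inhibitor 1 lies at 566 CPM.

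Choroid plexus genes were also uneven in this group, in a different order of libraries. The 8 genes summed to 864, 170, 499 and 15.4 CPM in Wnt inhibitor 1 to 4, to 8.73 to 15 CPM in dcKO vehicle and to 8.85 to 136 CPM in wild type. edgeR called 0 of 8 in this contrast, 7 were under an unadjusted p of 0.05, and DESeq2 called 6 of 8. Wnt inhibitor 4 was at the vehicle level of choroid plexus genes, with 153 CPM of Foxp1 and 74.4 CPM of Syt6. The part of choroid plexus tissue in the members' values was not tested. The genes most like a member across all 19 libraries, by Pearson r of deviations from the group mean of log2 CPM among 11502 genes, were Gucy1b1 (0.89), Necab1 (0.89) and Gm2061 (0.86) for Foxp1. For Syt6 they were Tdg (0.85), Fyco1 (0.84) and Trub2 (0.82), and for Tbr1 they were Tmem123 (0.94), Rbm24 (0.92) and Pou3f2 (0.91). None of these is a member, and 7 pairs of the 19 libraries match, so these values describe the libraries.

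How the inhibitor-treated dcKO cortex compared with vehicle-treated wild type was read last. Foxp1 and Syt6 stood above wild type and not between wild type and dcKO vehicle, with log2 values of 0.39 ± 0.10 and 0.38 ± 0.09 (SE, not tested). They did not overlap wild type, as for 3.48% of all genes higher in this contrast. The selection used these inhibitor values, so nothing is read from their height. Sox5 was near the level of dcKO vehicle, with 129, 196, 127 and 135 CPM in Wnt inhibitor 1 to 4. Ctgf was at 6.76, 5.74, 4.13 and 4.82 CPM, the first pair inside the wild-type range and the second pair below it. Tle4 was at 127, 155, 155 and 146 CPM, Nr4a2 at 66.4, 75.9, 70.6 and 76.0 CPM and Tbr1 at 260, 296, 276 and 279 CPM. The Nr4a2 values lay below all 4 wild-type libraries, as for 4.02% of all genes, and the Tbr1 and Tle4 values overlapped them.

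In edgeR 0 of 6 members passed against wild type, beside 0.0366% of all genes called lower, 2 of them (Foxp2 and Sox5) were under an unadjusted p of 0.05, and DESeq2 called 0 of 6. The values were 0.67 for Foxp2 (95% interval 0.22 to 1.13, adjusted p = 0.131), -0.60 for Sox5 (-1.10 to -0.09, adjusted p = 0.197), -0.30 for Ctgf (-0.84 to 0.24), -0.24 for Tbr1 (-0.48 to 0.01), -0.19 for Nr4a2 (-0.41 to 0.02) and -0.11 for Tle4 (-0.41 to 0.18). Without the doubted libraries 2 inhibitor libraries remained and again 0 of 6 passed, beside 4.72% of all genes called lower, with Sox5 at -0.76 (adjusted p = 0.0574), Ctgf at -0.56 (adjusted p = 0.0646) and Foxp2 at 0.70 (adjusted p = 0.0707). In that setting 3 of 6 were under an unadjusted p of 0.05. DESeq2 was not run there. Of the other layer 6 genes edgeR called 0 of 9 with all libraries, with 2 under an unadjusted p of 0.05 and 1 called by DESeq2, and it called 2 of 9 lower without the doubted ones, Fezf2 (-0.49) among them. Of 13 striatal genes it called 0 with all libraries, with 8 under an unadjusted p of 0.05 and 6 called by DESeq2, and 8 higher without the doubted ones. Otx2, a choroid plexus gene, was called higher with all libraries (1.64).

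A region with an H3K27me3 peak in 2 or more of the 8 libraries lay at the start of every member. Peaks of the 8 libraries were joined into 22222 regions, of which 18 touched a member, and 8 of 8 members had a region within 2000 bp of the annotated gene start, against 25.7% of the 13891 protein-coding genes tested in both RNA fits. The libraries were uneven, with 2420911 to 28335352 tags kept and 6674 to 46000 peaks, so a missing peak says only that none was called there. Of the 18 member regions, 13, 7, 5 and 8 had a peak in C 1 to 4 and 12, 2, 8 and 14 in K 1 to 4.

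The broadest and strongest start region was that of Syt6 (chr3:103570274-103579578), which spans the promoter printed above. Its fold enrichment over input was 7.51, 4.32 and 3.99 in C 1, 2 and 4 and 12, 4.58 and 7.92 in K 1, 3 and 4, with no peak in C 3 and K 2. At the Ctgf start (chr10:24594872-24596992) it was 4.44, 3.54 and 3.47 in the same C libraries and 5.65, 4.55 and 8.40 in the same K libraries. At the Tbr1 start (chr2:61802658-61807746), which also holds its printed promoter, it was 4.07, 4.24 and 3.30 in C 2, 3 and 4 and 4.15 and 6.47 in K 3 and 4. In the Syt6 and Tbr1 regions the called values of C and K overlapped, for Tbr1 only through the C 3 peak. At Ctgf every K peak was above every C peak, but each group had a library with no peak. A second Tbr1 region (chr2:61808881-61814844) ran through the rest of the gene and past its end. The start regions of Foxp1 (chr6:99520418-99522484), Nr4a2 (chr2:57123465-57124698) and Tle4 (chr19:14596841-14597329) had a peak in 1 C library each and in 2, 2 and 1 K libraries. Those of Foxp2 (chr6:14897944-14902689) and Sox5 (chr6:144781111-144783582) had one in 2 C libraries and in 3 and 2 K libraries. Within 2000 bp of the Foxp2 start, however, only C 1, K 1 and K 4 had a peak. Those of C 2 and K 3 lay elsewhere in its region. In the Tbr1 start region the C 3 peak and the highest K 4 peak also lay outside that distance. The Foxp1 window with the CTTTGA match lay in no region, as only K 4 had a peak over part of it (chr6:99266219-99266718, fold enrichment 4.13).

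**Figure D5:**
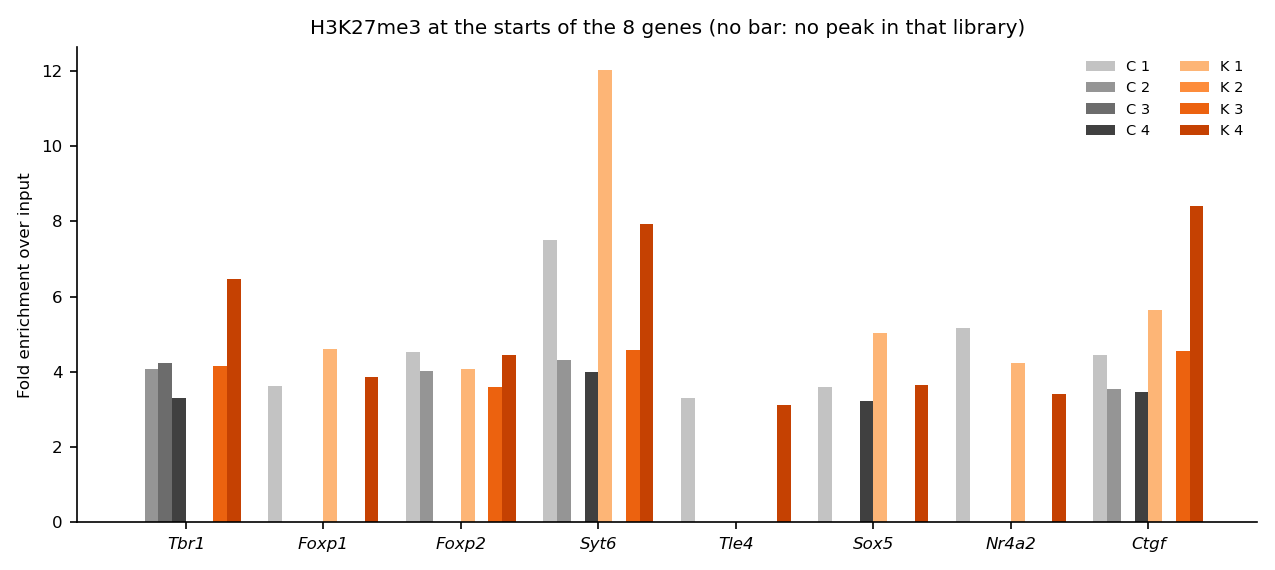
Fold enrichment of H3K27me3 over input (y axis from 0) at the start region of each gene (x axis) in the 4 C and 4 K libraries. Each bar is the highest peak of 1 library in that region, and a missing bar means that no peak was called. K bars reach above C bars at Syt6 (up to 12 in K 1), Ctgf and Tbr1, but K 2 has no bar at any gene and C 3 has only the one at Tbr1.

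With limma on log2 fold enrichment, where no peak counts as 1, 0 of 18 member regions passed an unadjusted p of 0.01, beside 0.009% of all regions, and none passed 0.05 or an adjusted threshold. No second tool was run. The differences K minus C were 0.50 ± 0.88 (SE) in the Ctgf start region, 0.44 ± 0.82 in that of Syt6 and -0.27 ± 0.91 in that of Tbr1. Over the 18 regions 12 differences were positive and 6 negative, with a median of 0.20 against 0.05 over all regions. Errors of this size, with each missing peak set to 1, leave a change of the mark at any of these genes not detectable here. Over all 22222 regions, 49 were under an unadjusted p of 0.05 in limma, so the test could hardly call any region. The genes lower in the mutant without the doubted libraries, Sox5, Ctgf and Tle4, had differences of 0.16, 0.50 and -0.02 at their starts. The H3K27me3 libraries carry no measure of Smarcc1 or Smarcc2, so the split seen in the RNA could not be looked for in them.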

How the data were processed

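RNA-seq gave counts per gene that the authors deposited as raw whole-number counts, 1 file per library, for 7 untreated and 12 treated libraries. By the study's methods reads were mapped to mm10 with STAR and counted with featureCounts. The gene annotation and strand setting are not given in the sources used here. H3K27me3 peaks were deposited by the authors as MACS2 2.1.0.20140616 broad peak tables, called per library against the pooled input of its group, with fold enrichment (a ratio), pileup (coverage signal) and -log10 p and q values, at a q-value limit of 0.1.

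Genes were filtered with filterByExpr, scaled by TMM and tested with edgeR 4.0.16 (quasi-likelihood, R 4.3.3), and p-values were adjusted by Benjamini-Hochberg over all genes of a fit at 0.05. The 12 treated libraries shared 1 fit. A common fit of both experiments gave the interaction. DESeq2 1.42.0 was the other tool. RPKM used the summed exon length of GENCODE M21. Peaks overlapping by 1 bp were joined, and regions called in 2 or more libraries were tested with limma 3.58.1 (bedtools 2.31.1). Scripts were tested on simulated data. By the study's methods the untreated and ChIP libraries came from littermate embryos. Nothing says so of the treated ones. Each treated group held libraries of differing sex-linked pattern, so no group was 1 sample repeated. Whether every treated library came from its own embryo is not given in the sources used here, so part of the spread behind their p-values may be technical.

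The members and lists were chosen with earlier results of these data known. Named were the members, Smarcc1, Smarcc2, at most 5 called genes of a list by smallest p per contrast, and the 3 genes most like Tbr1, Foxp1 and Syt6 (mean CPM of at least 5, prior count 2). Genes named from DESeq2 calls fall outside this rule and were named after their values were seen. The design had foreseen a test of Foxp1 and Syt6 without treatment. As those libraries match the vehicle libraries, which the selection used, none is given. Alternatives were DESeq2 size factors, no count filter, the DESeq2 test, the replicate number as a block, scaling by 14 pan-neuronal genes, a fit of only the groups compared and each library left out. For peaks they were a q-value under 0.01, 3 libraries, pileup, a 200 bp overlap and the block. Leaving out the 4 doubted libraries and blocking by same-numbered pairs were chosen after seeing the data. The result of 1 gene of a list is not reported here.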

Additional observations from a re-analysis of the deposited data

Results flagged for a closer look

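In 56 groups of 4 libraries the highest or lowest value was compared with the rest, as its gap to the nearest library over the range of the group. In 12 groups this share was large enough to stand apart, where chance flags about 1 in 20 groups of normally spread values. That rate does not hold for the H3K27me3 groups, where every missing peak has the same set value and few peaks give a large share. Among dcKO vehicle libraries the share was 0.954 for Smarcc1, 0.947 for Smarcc2, 0.906 for Ctgf and 0.901 for Sox5, each time because of the library labelled dcKO vehicle 2, the highest of its group. For Sox5 in the Wnt inhibitor group it was 0.881, because of Wnt inhibitor 2 (196 CPM against 127 to 135 CPM), a library at control level of Smarcc1 and Smarcc2. For Foxp1 in the wild-type vehicle group it was 0.849, because of wild type 3 (137 CPM). The part of the deletion level in the Sox5 and Ctgf values was not tested beyond leaving these libraries out.

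The other flags are H3K27me3 start regions in which peaks were called in few libraries. The share was 1 for Foxp1, Nr4a2 and Tle4 in C, where only C 1 had a peak, and 1 for Tle4 in K, where only K 4 had one. It was 0.835 for Ctgf in C and 0.858 for Foxp2 in K, where C 3 and K 2 had none. These 2 libraries also had the fewest member regions with a peak, 5 and 2 of 18.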

How the results depend on the processing

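Of the counts of members called, leaving out the 4 doubted libraries gave 3 in untreated M against C and 2 in dcKO vehicle against wild type, from 0 in both. Fitting only the 2 groups gave 1 under the inhibitor, from 2, and pan-neuronal scaling gave 1 (Foxp2, 0.89, edgeR adjusted p = 0.0346) in inhibitor against wild type, from 0. Leaving out 1 library gave 0 to 3, 0 to 1, 0 to 2 and 0 to 0 called in these contrasts, and the 3 came without M 2, the 1 without dcKO vehicle 2. Pan-neuronal scaling put the median of all genes at 0.16, 0.17, 0.06 and 0.22, with 984 genes called higher and 26 lower in untreated M against C (1 and 0 by TMM) and 902 and 42 in inhibitor against wild type (10 and 6 by TMM). The cause of these moves was not tested. No H3K27me3 setting called a member region.

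Some signs turned, each in a value that passed no test. In untreated M against C, Tbr1 was -0.023 and Nr4a2 -0.11 without the doubted libraries, Foxp2 0.079 there and 0.11 under pan-neuronal scaling, and Tle4 0.026 under that scaling. Leaving out 1 library gave -0.023 to 0.12 for Tbr1, -0.21 to 0.079 for Foxp2 and -0.11 to 0.15 for Nr4a2. In dcKO vehicle against wild type, pan-neuronal scaling gave 0.12 for Tbr1, 0.081 for Foxp2 and 0.15 for Nr4a2, and leaving out 1 library gave -0.13 to 0.038, -0.23 to 0.038 and -0.11 to 0.041. Under the inhibitor, leaving out 1 library gave -0.29 to 0.14 for Sox5 and -0.0077 to 0.21 for Tle4. Pan-neuronal scaling put the median over the members, Foxp1 and Syt6 included, at -0.057, -0.038, 0.21 and 0.063 in the 4 contrasts. By TMM these medians were -0.21, -0.21, 0.17 and -0.15. In inhibitor against wild type that scaling gave 0.10 for Tle4 and 0.022 for Nr4a2. For the difference between the genotype contrasts, the doubted libraries left out gave 0.019 for Tle4, 0.0054 for Nr4a2 and 0.017 for Ctgf. Leaving out 1 library gave -0.17 to 0.13 for Foxp2, -0.16 to 0.17 for Tle4, -0.28 to 0.22 for Sox5, -0.17 to 0.092 for Nr4a2 and -0.40 to 0.38 for Ctgf.

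The numbers do not pair libraries within an experiment (mean r = -0.14 untreated, 0.09 treated). With the replicate number as a block, 0, 0, 2 and 0 members were called in the 4 contrasts, so no call changed, and Foxp2 turned to 0.013 in untreated M against C. The pairing of same-numbered untreated and vehicle libraries as a block called 0 members and gave 0.061 for Foxp2, 0.041 for Tle4, 0.0076 for Sox5 and 0.0043 for Nr4a2 in the difference.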
